A study of Homo sapiens with 8 samples.

Results

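The crosslink sites described here are those on 18S ribosomal RNA, the RNA of the small ribosomal subunit, in iCLIP libraries of the human enzymes DUS1L and DUS2L. They were taken as all sense-strand sites on the 45S pre-rRNA reference (RNA45SN1) at its positions 3655 to 5523, and 3654 was subtracted to number them along the 1869 nt of 18S. In the RefSeq annotation of hg38, RNA18SN1 lies on chromosome 21 from 8436876 to 8438744, inside RNA45SN1 (8433222 to 8446572), and its product is a non-coding rRNA. A count was recorded at 1467 of the 1869 positions of 18S in at least 1 library, out of 16258 sense-strand sites over all RNAs, and 402 positions of 18S had none. Just outside the mature ends the libraries together held 20 counts in the 10 nt before position 1 and 2 in the 10 nt after position 1869, against 14 and 3 in the first and last 10 nt inside.

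18S rRNA is cut from the 45S precursor together with 5.8S and 28S rRNA, and as part of the small subunit it reads mRNA codons at the decoding centre, near the top of a long helix close to its 3′ end. DUS1L and DUS2L are dihydrouridine synthases, which reduce uridines in the D-loop of tRNAs, and 18S is not among their established substrates. 5-Chlorouridine (5-ClUrd) is taken up and built into RNA in place of uridine, and halogenated uridines of this kind are used to trap RNA-modifying enzymes on their targets. iCLIP records the nucleotide next to which reverse transcriptase stopped, normally because a peptide was left there, although some natural base modifications stop the enzyme too.

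The libraries came from Flp-In T-REx 293 cells, a human embryonic kidney line that carries 1 tagged gene at a fixed genomic site under a tetracycline promoter, so the tagged enzyme was made at a level set by the drug. There were 4 groups of 2 libraries each, called biological replicates by the series: 3xFLAG-DUS1L cells with 5-ClUrd, 3xFLAG-DUS1L cells without it, 3xFLAG-DUS2L cells with 5-ClUrd, and 3xFLAG-DUS2L cells without it. All cells received tetracycline at 1 µg/mL for 12 h and again for 12 h in fresh medium, which held 100 µM 5-ClUrd for the treated groups. No library of untagged cells was used here, so the background of the method on 18S is not measured.

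Total sense counts were 824657 and 542521 in 5-ClUrd DUS1L, 144322 and 7369 in untreated DUS1L, 370878 and 363024 in 5-ClUrd DUS2L, and 130011 and 172078 in untreated DUS2L. Of these, 18S took 2375 and 598 counts in 5-ClUrd DUS1L, 453 and 9 in untreated DUS1L, 1753 and 2621 in 5-ClUrd DUS2L, and 4516 and 4225 in untreated DUS2L. The untreated DUS1L baseline therefore rests almost wholly on library 1, since library 2 has 9 counts on 18S at 5 positions. The DUS2L site files are named as premapped to non-coding RNAs and the DUS1L files are not, so the enzyme and the making of the files cannot be told apart wherever the 2 enzymes are set against each other. Outside untreated DUS1L, chi-square values per degree of freedom between replicates over the 18S windows were 5.59 to 9.30. This is more than the counting noise of independent counts would give. The value for untreated DUS1L, 1.75, rests on the 9 counts of library 2 and cannot be read in this way.

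In DUS2L cells 18S took a smaller share of all sense counts with 5-ClUrd. The share was 0.473% and 0.722% in 5-ClUrd DUS2L, against 3.47% and 2.46% in untreated DUS2L, and the groups did not overlap. The group means were 0.597% ± 0.176 with 5-ClUrd and 2.96% ± 0.720 without it (SD, n = 2 each). Exact (Clopper-Pearson) 95% intervals, which cover counting error only, were 0.451% to 0.495% and 0.695% to 0.750% with 5-ClUrd, and 3.37% to 3.57% and 2.38% to 2.53% without. An exact permutation test of 2 libraries against 2 cannot go below p = 0.333, the value it gave (two-sided). In the fit over 55 RNA families, 18S fell by 2.31 ± 0.30 (SE) on the log2 scale (adjusted p = 0.000496), which is 4.96-fold lower. Of all 55 families 23.6% fell, and the median family change was 0.86. 28S rRNA, the RNA of the large subunit, changed by a log2 value of -2.35 ± 0.32 (adjusted p = 0.000589).

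The balance between 18S and 28S differed by less than the spread between the 5-ClUrd DUS2L libraries. 18S made up 20.9% and 19.4% of the 18S plus 28S counts in 5-ClUrd DUS2L, against 19.4% and 19.6% in untreated DUS2L. Per nucleotide, 18S had 0.320 ± 0.094 counts per 100000 sense counts with 5-ClUrd and 1.59 ± 0.385 without, and 28S had 0.473 ± 0.170 with 5-ClUrd and 2.42 ± 0.606 without (SD, n = 2 each). When each library was scaled by its 45S counts in place of all sense counts, the log2 difference of 18S was -0.03 (adjusted p = 0.949). That scaling moved the median family to 3.14, so the fall of 18S is relative to all crosslinked RNAs of the library; shares within 18S do not use that scaling.

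**Figure D1:**
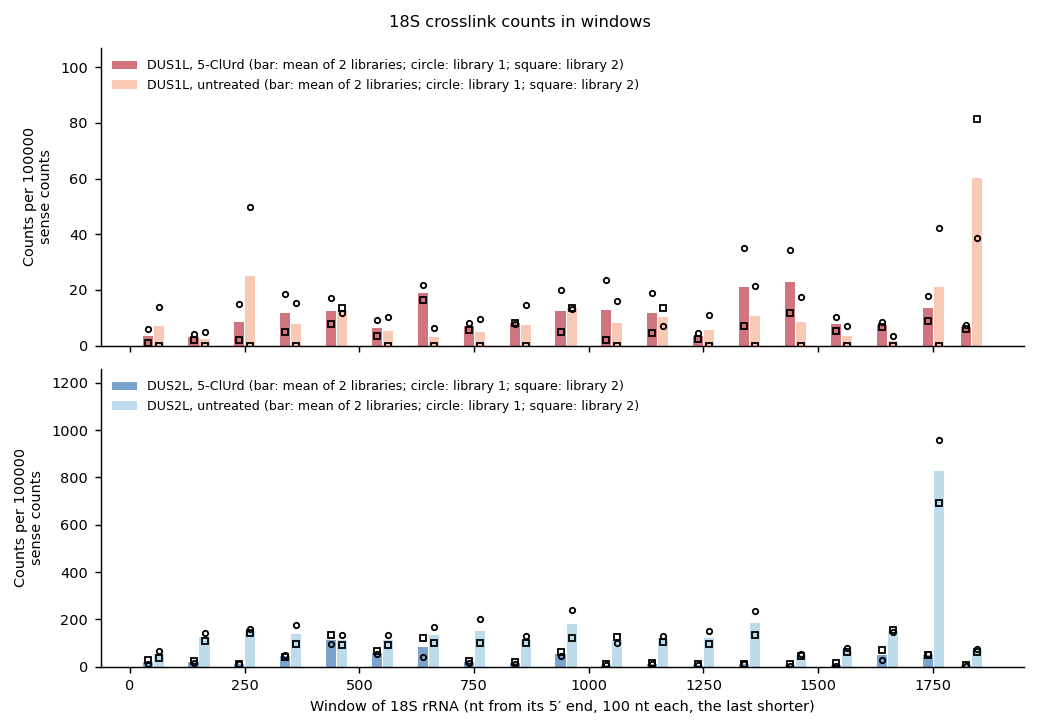
Crosslink counts per 100000 sense counts in the 19 windows of 18S rRNA, numbered from its 5′ end, for DUS1L (top) and DUS2L (bottom). Bars are means of 2 libraries and the open symbols single libraries. In untreated DUS2L the window from 1701 to 1800 holds 959 and 692 counts per 100000, against 51.5 and 49.3 with 5-ClUrd.

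The loss in DUS2L cells was uneven along 18S. In windows of 100 nt, 15 of 19 fell and 0 rose, against 28% of all 357 windows that fell and 30.8% that rose. None of the 19 rose at an unadjusted p under 0.05 either, and the DESeq2 Wald test gave 16 lower and 0 higher. The median window of 18S changed by -2.85, against 0.13 over all windows tested. The windows that did not pass the test started at 1 (-1.41, adjusted p = 0.0826), 401 (0.00, adjusted p = 0.995), 501 (-0.93, adjusted p = 0.136) and 601 (-0.69, adjusted p = 0.237).

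The window from 1701 to 1800, which lies in the long helix below the decoding centre, stood out in untreated cells. It had 191 and 179 counts in 5-ClUrd DUS2L, against 1247 and 1191 in untreated DUS2L. This is 10.9% and 6.83% of the 18S counts with 5-ClUrd, and 27.6% and 28.2% without. Its log2 change was -4.03 ± 0.40 (SE, adjusted p = 1.43e-20). The window from 1301 to 1400 fell by 4.12 ± 0.60 (SE) on the log2 scale (adjusted p = 2.4e-10), to 35 and 42 counts with 5-ClUrd, against 307 and 227 without.

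The stretch from 401 to 700 gained share. Its 3 windows together held 40.1% and 44.4% of the 18S counts in 5-ClUrd DUS2L, against 12.5% and 11.6% in untreated DUS2L. The window from 401 to 500 alone held 350 and 483 counts with 5-ClUrd and 176 and 158 without, or 94.4 and 133 per 100000 against 135 and 91.8, so its level overlapped between the groups while its share of 18S did not. Scaled by 45S counts, these 3 windows were the ones of 18S that rose, by log2 values of 2.30 ± 0.60, 1.39 ± 0.56 and 1.50 ± 0.57 (SE, adjusted p = 0.000324, 0.0197 and 0.0141). Over all RNAs, 236 of 357 windows rose and 23 fell with 45S scaling, with a median of 2.37, so a rise was the usual outcome there. Under that scaling 6 windows fell, those starting at 201, 1001, 1201, 1301, 1701 and 1801, which together held 19.1% and 14.1% of the 18S counts with 5-ClUrd and 48.3% and 50.7% without.

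**Figure D2:**
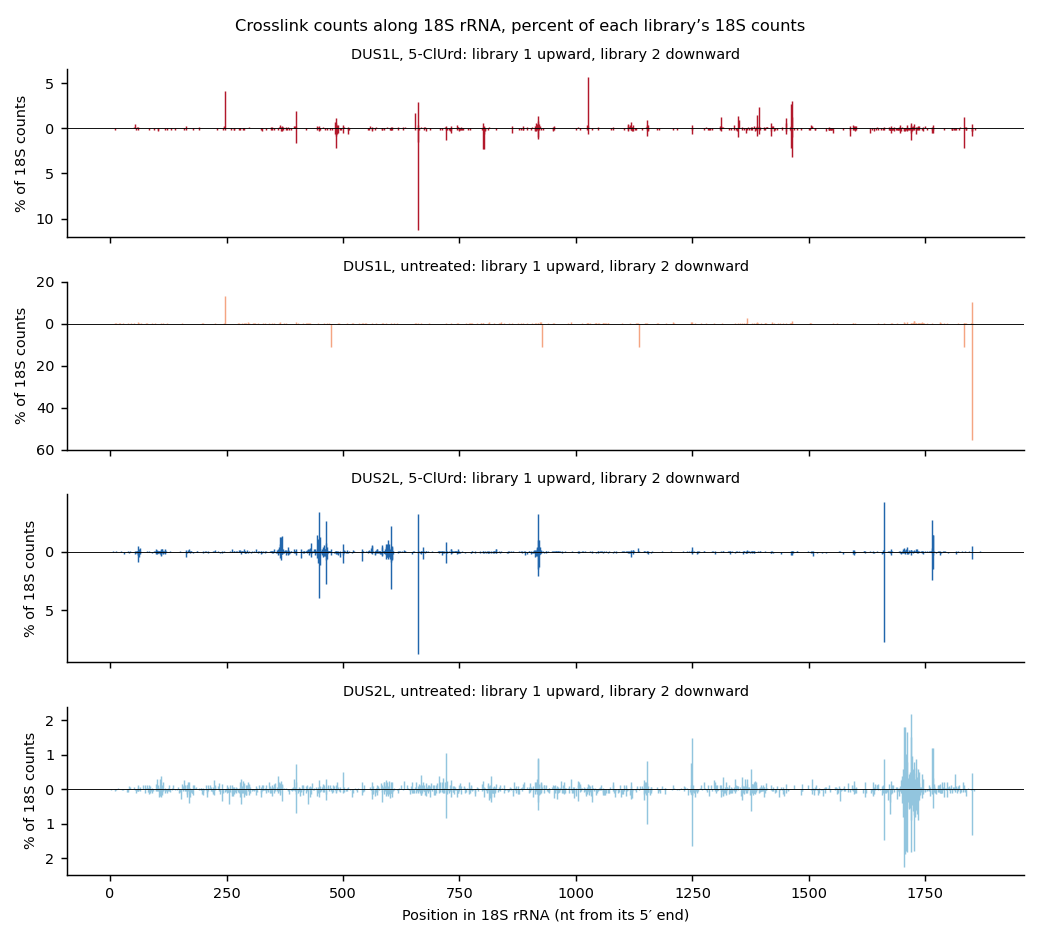
Percent of each library's 18S counts at each of the 1869 positions of 18S rRNA, library 1 drawn upward and library 2 downward, each panel with its own scale. The 5-ClUrd DUS2L libraries have isolated high positions such as 660 and 1661, the untreated DUS2L libraries have a dense block after 1701, and untreated DUS1L library 2 has 9 counts in all.

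Counts on 18S were more concentrated with 5-ClUrd in DUS2L cells. The 10 highest positions of a library took 26.2% and 35.1% of its 18S counts in 5-ClUrd DUS2L, against 14.9% and 16.8% in untreated DUS2L. The number of positions with a count depends on depth, so each library was thinned to 453 counts on 18S: a count then remained at 227 and 208 positions with 5-ClUrd, against 273 and 271 without. Unthinned, the numbers were 532 and 596 with 5-ClUrd, against 784 and 765 without. The groups did not overlap in either measure, and the exact permutation p was 0.333 for both, the smallest this design allows.

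Single positions showed the same block. Of 325 positions of 18S with enough counts to be tested in DUS2L cells, 124 fell and 2 rose, against 17.0% and 14.9% of all 5140 sites tested. The median position changed by -3.16, against 0.16 over all sites. Of the 124, 38 lay between 1701 and 1800, 111 did not overlap between the groups, and 56 were at 0 in both 5-ClUrd libraries. These numbers were taken among called positions only, without the share over all sites. Here and below, the number of positions tested in a single window was not counted. The longest unbroken run of them covered the 13 nt from 1715 to 1727. These single-position calls needed both untreated libraries: without either one, 0 of 187 or 0 of 207 positions passed in edgeR, as did 0 of all 4350 or 4417 sites, with 79 or 109 of the 18S positions lower at an unadjusted p under 0.05, while the window calls numbered 11 and 14. Without 5-ClUrd library 1 or 2 fewer positions fell, with median changes of -3.31 and -3.81 over the tested positions. Under 7 other settings between 21 and 52 fell. TMM factors gave 29 of 325 (174 of all 5140 sites), 45S scaling 23 (89), the DESeq2 Wald test 46 (339) and the replicate block 52 (413). Without positions above 500 counts 30 of 325 fell (180 of all 4452 sites). At a minimum of 50 counts 21 of 37 fell (251 of all 1950 sites), and at a minimum of 1 count 21 of 1315 (157 of all 13653 sites). With DESeq2 size factors 107 fell (700 of all 5140 sites), and in 1 fit of all libraries 143 of 413 (942 of all 7873 sites).

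Position 1703 had 6 and 3 counts in 5-ClUrd DUS2L, against 81 and 95 in untreated DUS2L. Per 100000 sense counts this is 1.62 and 0.826 with 5-ClUrd, against 62.3 and 55.2 without, and the log2 change was -5.53 ± 0.96 (SE, adjusted p = 6.76e-07). Position 1711 had 3 and 0 counts with 5-ClUrd and 75 and 77 without (log2 -6.81 ± 1.11, adjusted p = 1.43e-07). The groups do not overlap at either position, and the untreated libraries are the high ones.

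Position 1706 had 1 and 5 counts with 5-ClUrd and 81 and 79 without, and position 1718 had 3 and 7 with 5-ClUrd and 98 and 77 without. Their log2 changes were -5.96 ± 1.02 and -5.41 ± 0.94 (SE, adjusted p = 5.13e-07 and 8.01e-07). The positions with the largest fitted falls had no count with 5-ClUrd, and their folds are lower bounds against 3 counts over the group: 1717 was at least 36.4-fold lower and 1721 at least 35.6-fold lower. The other 8 with the largest falls were 1814, 705, 1712, 1736, 1356, 1796, 1145 and 1384, each at least 13.8-fold lower, and 5 of these 10 positions lie between 1701 and 1800.

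**Figure D3:**
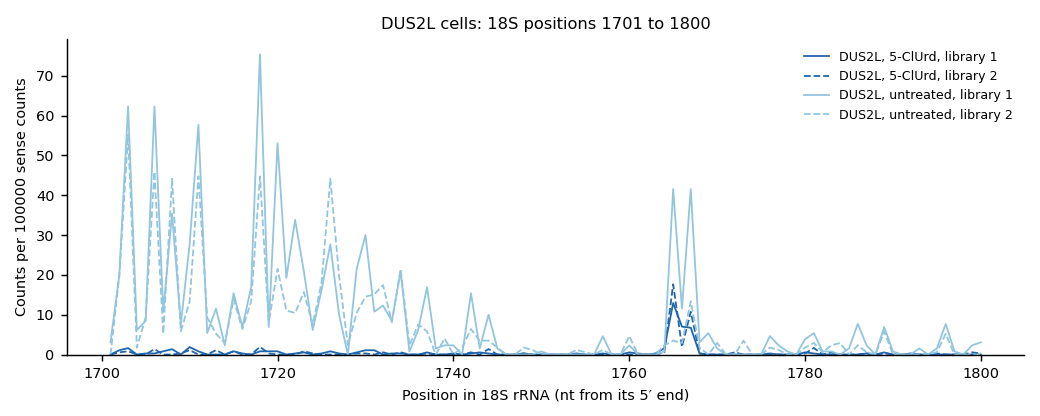
Counts per 100000 sense counts at positions 1701 to 1800 of 18S rRNA in DUS2L cells, 1 line per library. Both untreated libraries run along the same set of high positions, among them 1703, 1706, 1711 and 1718, and both 5-ClUrd libraries lie near 0 over the first part of the window, with counts at 1765 and 1767.

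Position 660 rose in DUS2L cells. It had the highest mean share of 18S in 5-ClUrd DUS2L, carried by library 2, while in library 1 position 1661 was higher. It had 57 and 230 counts in 5-ClUrd DUS2L, against 4 and 5 in untreated DUS2L, or 15.4 and 63.4 per 100000 sense counts against 3.08 and 2.91. The log2 change was 3.70 ± 1.00 (SE, adjusted p = 0.00263). Both treated libraries were above both untreated ones, but library 2 was far above library 1, and without library 2 of the 5-ClUrd group the change was 2.34 with an adjusted p of 0.124. Position 465, the other one that rose, had 8 and 17 counts with 5-ClUrd and none in either untreated library, at least 3.43-fold higher (adjusted p = 0.0489, and 0.137 without library 1 of the 5-ClUrd group). Its call was lost in 8 of 11 alternatives.

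Other high positions of the 5-ClUrd DUS2L libraries passed the test in neither direction. Position 1661 had 75 and 202 counts with 5-ClUrd and 39 and 62 without, or 20.2 and 55.6 per 100000 against 30.0 and 36.0, and the groups overlapped (log2 0.20 ± 0.71, adjusted p = 0.843). Position 448 had 16.2 and 28.4 per 100000 with 5-ClUrd, against 9.23 and 5.23 without (log2 1.63 ± 0.99, adjusted p = 0.174). Position 603 had 10.5 and 22.9 with 5-ClUrd, against 6.92 and 2.91 without (adjusted p = 0.173), and position 464 had 12.4 and 19.6, against 10.0 and 3.49 (adjusted p = 0.333). These 3 positions were higher in both treated libraries than in both untreated ones, without passing the test.

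Position 919 had 15.4 and 15.1 counts per 100000 with 5-ClUrd, against 30.8 and 14.5 without, and position 1765 had 12.9 and 17.6, against 41.5 and 3.49. The groups overlapped at both. Scaled by 45S counts, 16 of 325 positions rose and 23 fell, against 2307 and 89 of all 5140 sites. Positions 448, 464, 603, 660 and 1661 were among the 16. Of the 10 positions with the highest mean share of 18S in each DUS2L group, 1 was shared, position 1661.

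**Figure D4:**
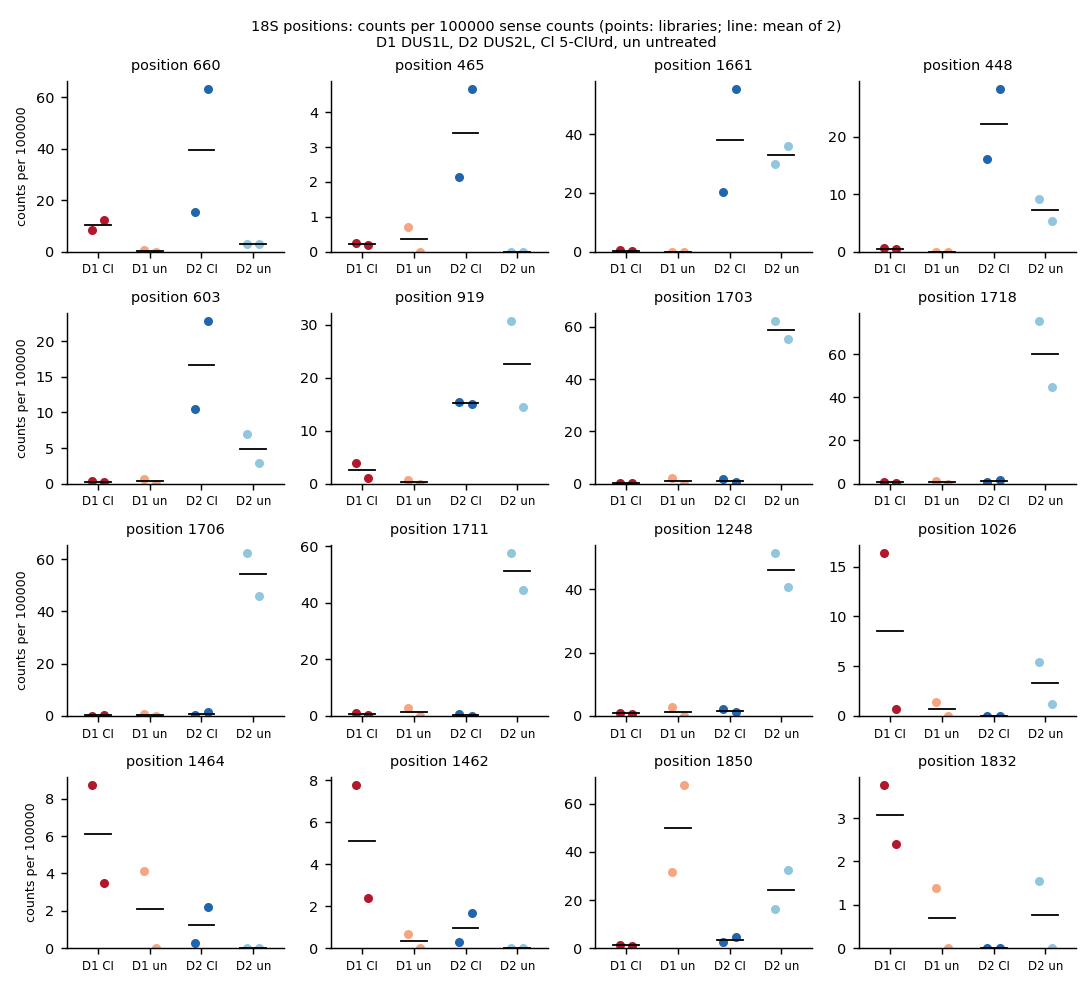
Counts per 100000 sense counts at selected 18S positions, each panel with its own scale starting at 0, points for libraries and lines for means of 2. D1 is DUS1L, D2 is DUS2L, Cl is 5-ClUrd and un is untreated. Position 660 is above its untreated libraries in both enzymes, positions 1703, 1706, 1711, 1718 and 1248 are far higher in the untreated DUS2L libraries than in the other 6, and 1850 is highest in untreated DUS1L.

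In DUS1L cells 18S as a whole did not pass the test. Its share was 0.288% and 0.110% in 5-ClUrd DUS1L, against 0.314% and 0.122% in untreated DUS1L, and the groups overlapped. The log2 difference was -0.19 ± 0.85 (SE, adjusted p = 0.844), an estimate that turned positive without 5-ClUrd library 2 or untreated library 1. 18S made up 35.5% and 18.2% of the 18S plus 28S counts with 5-ClUrd, and 30.8% and 28.1% without. The 2 treated libraries differed more from each other than the groups did.

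Of the 19 windows 1 passed the test in DUS1L cells, the last, from 1801 to 1869, and it fell. It had 62 and 32 counts in 5-ClUrd DUS1L, against 56 and 6 in untreated DUS1L, or 7.52 and 5.90 per 100000 sense counts against 38.8 and 81.4. The log2 change was -3.00 ± 1.08 (SE, adjusted p = 0.0335), and 3.67% of all 354 windows fell. In edgeR 0 windows rose, 0 of them also at an unadjusted p under 0.05 and 0 by the DESeq2 Wald test. With the replicate number as a block 0 of 19 windows passed, against 26 higher and 9 lower of all 354 windows. Leaving out a library leaves 1 in its group. The median window of 18S then changed by 0.48 without 5-ClUrd library 2 and by -0.36 without untreated library 2. Over all windows these medians were 0.78 and 0.65.

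Position 1850 in that window had 12 and 5 counts in 5-ClUrd DUS1L, against 46 and 5 in untreated DUS1L, so it made up most of the window in the untreated libraries but not in the treated ones. Per 100000 sense counts this is 1.46 and 0.922 with 5-ClUrd, against 31.9 and 67.9 without, and the log2 change was -5.11 ± 0.95 (SE, adjusted p = 0.00106). The treated libraries are low and the untreated ones high, with no overlap. Without either 5-ClUrd library the change was -5.62 or -5.01 and no longer passed (adjusted p = 0.319 and 0.337).

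Of 61 tested positions 3 rose and 3 fell in DUS1L cells, against 31.7% and 2.31% of all 4715 sites, and the median position changed by 2.92, against 3.55 over all sites. Position 660 rose here too, with 68 and 67 counts in 5-ClUrd DUS1L, against 1 and 0 in untreated DUS1L, or 8.25 and 12.4 per 100000 against 0.693 and 0. Its log2 change was 3.91 ± 1.34 (SE, adjusted p = 0.0208). The single untreated count puts the pooled ratio between 2.64 and 596 (exact 95% interval, counting error only), and without untreated library 1 the adjusted p was 0.676.

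Positions 485 and 1392 also rose, with 27 and 13 and with 55 and 4 counts in 5-ClUrd DUS1L, against none in untreated DUS1L, which is at least 1.48-fold and 2.18-fold higher (adjusted p = 0.0464 and 0.0342). The call at 485 was lost in 8 alternatives and kept in 4, and that at 1392 was lost in 7 and kept in 5. Position 1366, with 1 and 0 counts with 5-ClUrd and 12 and 0 without, and position 246, with 98 and 1 with 5-ClUrd and 59 and 0 without, fell (adjusted p = 0.00227 and 0.0452). At both, all or nearly all counts of a group came from library 1 and the groups overlapped. Without untreated library 1 the value for 246 was 7.82 (adjusted p = 0.787). The DESeq2 Wald test gave 0 positions higher and 1 lower, against 0 and 5 of all 4715 sites. Without 5-ClUrd library 1 or 2, the median tested position of 18S changed by 0.84 or 3.01, against 2.56 or 3.22 over all sites. Without untreated library 1 it changed by 5.47, against 6.99 over all sites.

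Position 1464, another high position of the 5-ClUrd DUS1L libraries, had 72 and 19 counts in 5-ClUrd DUS1L and 6 and 0 in untreated DUS1L, and its neighbour 1462 had 64 and 13, against 1 and 0. Position 1026 had 135 and 4, against 2 and 0, so library 1 carried it. None of these 3 passed the test (adjusted p = 0.549, 0.0799 and 0.0866).

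The response to 5-ClUrd in DUS2L minus that in DUS1L was -2.06 ± 0.84 (SE) on the log2 scale for 18S as a whole (adjusted p = 0.0919), and so did not pass. At the level of windows 6 of 19 passed, all lower, against 15.2% of all 376 windows: those starting at 1001, 1101, 1301, 1401, 1501 and 1701, with differences between -4.41 and -2.76 (adjusted p between 0.00315 and 0.0343). The largest, at 1301, combines 289 and 38 counts in 5-ClUrd DUS1L and 31 and 0 in untreated DUS1L with the DUS2L values given above. Without 5-ClUrd library 1 of DUS1L or of DUS2L, 0 windows passed, and without either untreated DUS2L library 1 did. Of 413 tested positions 2 passed, 1720 and 1026, both lower, against 1.22% of 7873 sites. Scaled by 45S counts, 0 windows passed, with 2 higher and 2 lower at an unadjusted p under 0.05.

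Between the enzymes with 5-ClUrd, 18S had the larger share in DUS2L. It was 1.58 ± 0.59 (SE) on the log2 scale, or 3.00-fold, higher in 5-ClUrd DUS2L than in 5-ClUrd DUS1L (adjusted p = 0.0456), and 38.2% of all 55 families were higher. The call was lost with TMM factors and without 3 of the 4 libraries in turn. Of the windows 9 were higher, against 34.6% of all 376, and 0 lower in edgeR, with 1 lower at an unadjusted p under 0.05 and 0 by the DESeq2 Wald test. The largest differences were 3.21 ± 0.75 at 501 and 3.19 ± 0.73 at 401 (SE, adjusted p = 0.000231 and 0.00015). Without 5-ClUrd DUS1L library 2, 3 windows were higher.

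Of 413 positions 70 were higher in 5-ClUrd DUS2L and 12 lower, against 23.2% and 29.2% of all 7873 sites, and 22 of the 70 lay between 401 and 500. Without 5-ClUrd DUS1L library 1 or 2, 18 or 15 were higher and 1 or 7 lower, and without 5-ClUrd DUS2L library 2, 43 were higher. Position 1661 had 75 and 202 counts in 5-ClUrd DUS2L, against 3 and 1 in 5-ClUrd DUS1L (log2 6.87 ± 1.20, adjusted p = 2.04e-07). Position 464 had 46 and 71, against 1 and 0 (log2 7.19 ± 1.38, adjusted p = 2.26e-06). Position 660 had 57 and 230 in 5-ClUrd DUS2L and 68 and 67 in 5-ClUrd DUS1L, and it was the 1 position among the 10 highest in both treated groups. Positions 1026, 1392 and 1832 were lower, each with no count in 5-ClUrd DUS2L, by at least 24.9-fold, 10.6-fold and 7.87-fold.

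Without 5-ClUrd, 18S was 3.65 ± 0.65 (SE) on the log2 scale, or 12.5-fold, higher in untreated DUS2L than in untreated DUS1L (adjusted p = 0.00122), and 47.3% of the 55 families were higher. Of the windows 17 were higher, against 43.6% of all 376, and 0 lower, 0 also at an unadjusted p under 0.05 and by the DESeq2 Wald test. The exceptions were 1401 (1.78, adjusted p = 0.0658) and 1801 (0.37, adjusted p = 0.697). Of 413 positions 52 were higher and 2 lower, a smaller part in each direction than the 15.3% and 12.0% of all 7873 sites. Of the 52, 28 lay between 1701 and 1800. Without untreated DUS1L library 1, 0 positions passed in either direction in edgeR, and without its library 2, 30 were higher. Scaled by 45S counts, the log2 difference of 18S was -0.43 between the untreated groups and -0.18 between the treated ones.

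The positions of 7 natural base modifications of human 18S and the 3 nucleotides that inspect the codon at the decoding centre were looked up, since the bases themselves were not read here. Position 1248, the site of a hypermodified pseudouridine that is known to block reverse transcriptase, had 8 and 4 counts in 5-ClUrd DUS2L, against 67 and 70 in untreated DUS2L. Per 100000 sense counts this is 2.16 and 1.10, against 51.5 and 40.7, and it fell by 4.78 ± 0.99 (SE) on the log2 scale (adjusted p = 4.97e-05). In DUS1L cells it had 8 and 4 counts with 5-ClUrd and 4 and 0 without, with no call (adjusted p = 0.278). Scaled by 45S counts, the DUS2L change was -2.39 with an adjusted p of 0.11.

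Position 1850, the first of a pair of dimethylated adenosines near the 3′ end that also block the enzyme, was the 1 position of 18S with a count in all 8 libraries. Untreated DUS1L library 2 limits this number, since it had a count at 5 positions only. A count in 7 or more libraries was found at 28 positions. In DUS2L cells position 1850 had 9 and 17 counts with 5-ClUrd, against 21 and 56 without (log2 -2.77 ± 1.04, adjusted p = 0.0305). It thus fell in both enzymes in the main fits. 18S as a whole changed by -2.31 in DUS2L cells. The DUS2L call at 1850 was lost in 10 alternatives and kept in 3. Those that lost it include leaving out any library but 5-ClUrd library 2, TMM factors, DESeq2 and the replicate block. Scaled by 45S counts the DUS2L change was -0.65 (adjusted p = 0.667), and the DUS1L change was -5.28 (adjusted p = 0.000347). Its neighbour 1851, the second of the pair, had 2 and 2 counts in 5-ClUrd DUS1L, 1 and 0 in untreated DUS1L, and none in DUS2L cells.

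Position 1832, the site of a methylated adenosine, had 31 and 13 counts in 5-ClUrd DUS1L, 2 and 0 in untreated DUS1L, none in 5-ClUrd DUS2L, and 2 and 0 in untreated DUS2L. Position 1639, a methylated guanosine, had at most 6 counts in a library. Positions 1337 and 1842, the acetylated cytidines, had none in any library. Together the 7 positions held 2.23% and 4.35% of 18S counts in 5-ClUrd DUS1L, 11.7% and 55.6% in untreated DUS1L (5 of 9 counts in library 2), 0.970% and 0.916% in 5-ClUrd DUS2L, and 2.06% and 3.12% in untreated DUS2L. The share was lower with 5-ClUrd in both enzymes, with no overlap between the groups. In untreated DUS1L library 1, 46 of these counts were at 1850 and 4 at 1248. Per 100000 sense counts, 1832 was higher in both 5-ClUrd DUS1L libraries than in both untreated ones, where library 2 had 7369 sense counts in all. It was not among the 3 positions that rose in DUS1L cells. The 3 decoding nucleotides, at 626, 1824 and 1825, held at most 4 counts in a library. What part stops at modified bases have in these counts was not tested.

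The profiles along 18S were most alike between replicates of the DUS2L groups. Pearson's r over the 1869 positions, given as a description, was 0.855 between the 5-ClUrd DUS2L libraries and 0.778 between the untreated ones, and it lay between 0.216 and 0.335 across these groups. The 5-ClUrd DUS1L libraries had r = 0.535 with each other, and between 0.195 and 0.572 with the 5-ClUrd DUS2L libraries, so the highest value across the enzymes was above that between these replicates. The 18S peaks in the deposited peak files, 2 to 6 nt wide, numbered 17 and 5 in 5-ClUrd DUS1L, 4 and 0 in untreated DUS1L, 8 and 10 in 5-ClUrd DUS2L, and 20 and 29 in untreated DUS2L. Over all RNAs the same libraries had 335 and 256, 126 and 37, 225 and 300, and 200 and 201 peaks. In this order 18S held 5.07% and 1.95%, 3.17% and 0%, 3.56% and 3.33%, and 10% and 14.4% of a library's peaks. Peaks were called per library, and with an overlap of at least 1 nt the replicates shared 3 peaks in 5-ClUrd DUS1L (17.6% and 60% of the libraries' 18S peaks), 0 in untreated DUS1L, 5 in 5-ClUrd DUS2L (62.5% and 50%) and 6 in untreated DUS2L (30% and 20.7%). A peak that included positions 918 and 919 was listed in both 5-ClUrd DUS1L libraries and in all 4 DUS2L libraries.

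The last 100 nt of 18S took 3.07% and 5.52% of 18S counts in 5-ClUrd DUS1L, against 14.3% and 66.7% in untreated DUS1L, and 1.37% and 1.76% in 5-ClUrd DUS2L, against 3.76% and 3.91% in untreated DUS2L. The treated libraries were lower for both enzymes, with an exact permutation p of 0.333 for each.

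Counts antisense to 18S were left out of all values above. In DUS2L cells they took 0.0438% and 0.180% of all counts with 5-ClUrd, against 0.0299% and 0.0475% without, and the groups overlapped. They made up 8.51% and 20.1% of the counts of both strands on 18S in 5-ClUrd DUS2L, against 0.856% and 1.90% in untreated DUS2L, where the sense counts were higher. In DUS1L cells they took 0.0766% and 0.0564% of all counts with 5-ClUrd, against 0.0481% and 0.122% without, and 21.1% and 34.0% of both strands on 18S, against 13.4% and 50%, so the groups overlapped in both measures. The highest antisense position, 93, had 68 and 236 counts in 5-ClUrd DUS2L and 4 and 12 in untreated DUS2L, while the sense counts of position 660 in the same libraries were 57 and 230, against 4 and 5. In 5-ClUrd DUS1L antisense position 93 had 0 and 1 counts, where sense position 660 had 68 and 67. The part of such reads in the sense counts of 18S was not tested.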

How the data were processed

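The members and the lists of positions were chosen with earlier results of these data known. Per the submitters' processing notes, STAR 2.7.0f and hg38 were used; for the calling of sites and peaks and any collapsing of molecular identifiers, the method is not given in the sources used here. Each deposited site file holds raw whole-number counts per nucleotide and strand for 1 library, with no site above 1436 counts. The deposited peak files hold a score per interval, which on 18S equals the library's summed counts.

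Sense counts were summed over 18S, over windows of 100 nt and at single positions, and scaled by each library's total sense counts. Families (55), windows and sites over all RNAs were tested with the quasi-likelihood F test of edgeR 4.0.16 in R 4.3.3, separately for each enzyme and over all 8 libraries for contrasts between enzymes, with at least 10 counts per feature and Benjamini-Hochberg adjustment over all features of a level (threshold 0.05). Rose and fell mean past that threshold. Single values per library were compared with exact permutation tests, and exact intervals at the 95% level cover counting error only, since the reads may not be independent molecules. With 7369 sense counts in the shallowest library, 3 counts correspond to 0.0407%.

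Positions named in the text are the 10 with the highest mean share of 18S in each group, up to 10 called positions in each direction without overlap between groups and with the largest change, and the listed modified and decoding nucleotides. The alternatives tried were the Wald test of DESeq2 1.42.0, library sizes corrected by its size factors, by TMM or replaced by 45S counts, minimum counts of 1 and 50, windows of 50 and 200 nt, the replicate number as a block, 1 fit of all libraries, leaving out positions above 500 counts, and leaving out each library. The sequence of 18S was not used here.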

Additional observations from a re-analysis of the deposited data

Results flagged for a closer look

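The response to 5-ClUrd differed between DUS2L and DUS1L cells, by the interaction term in edgeR, in 6 of 19 windows of 18S, against 15.2% of all windows that were lower. In edgeR 0 windows passed without 5-ClUrd library 1 of DUS1L or of DUS2L, with 5 or 6 lower at an unadjusted p under 0.05, and 0 with 45S scaling, with 2 higher and 2 lower. The DUS2L response minus the DUS1L response was -3.68 on the log2 scale for the window starting at 1001, -3.96 at 1101, -4.41 at 1301, -3.44 at 1401, -3.48 at 1501 and -2.76 at 1701. It also differed at 2 of 413 single positions, against 1.22% of all sites that were lower: 1026 (-9.07, adjusted p = 0.0156) and 1720 (-11.76, adjusted p = 0.00405). Position 1026 had no count in 5-ClUrd DUS2L and 7 and 2 in untreated DUS2L, against 135 and 4 in 5-ClUrd DUS1L and 2 and 0 in untreated DUS1L, and without 5-ClUrd DUS1L library 1 its adjusted p was 0.66. Position 1720 had 3 and 0 counts in 5-ClUrd DUS2L and 69 and 37 in untreated DUS2L, against 14 and 8 in 5-ClUrd DUS1L and none in untreated DUS1L, and without untreated DUS1L library 1 its adjusted p was 0.642. The fitted sizes at both positions depend on counts of 0 and are not bounds.

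Outside the sense-strand measurement, counts antisense to 18S took 0.112% of all counts in 5-ClUrd DUS2L, against 0.0387% in untreated DUS2L (means of 2 libraries). The single values were 0.0438% and 0.180% with 5-ClUrd, against 0.0299% and 0.0475% without, and the groups overlapped. After position 93, the highest antisense position of these libraries was 612, with 22 and 79 counts with 5-ClUrd and 0 and 1 without. In DUS1L cells the highest was 1333, with 59 and 27 counts with 5-ClUrd and none without.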

How the results depend on the processing

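Each comparison has 2 libraries a side, and untreated DUS1L has 9 counts on 18S in 1 of them, so single positions there cannot be resolved. All changes below are of edgeR calls unless DESeq2 is named, causes were not tested, and between-enzyme values share the limit of differently made files. 45S scaling: 18S as a whole -0.029 (no call) in DUS2L, 0.25 for the difference of responses, -0.18 between treated and -0.43 between untreated groups. Windows with 45S scaling: 3 higher and 6 lower in DUS2L (236 and 23 of 357), 0 lower for the difference (7 of 376). Between treated groups 2 windows were higher and 6 lower (70 and 165 of 376), and between untreated groups 1 and 4 (43 and 189). Positions with 45S scaling: 6 higher in DUS1L (2139 of 4715), 16 higher and 23 lower in DUS2L (2307 and 89 of 5140). For the difference 1 position was higher and 1 lower (186 and 12 of 7873). Between treated groups these were 22 and 36 (1128 and 3582), and between untreated groups 0 and 8 (166 and 1948). TMM factors: 1.13 for 18S between treated groups (no call), 1 window lower there (92 of 376). Positions with TMM factors: 0 higher in DUS1L (534 of 4715), 1 higher and 29 lower in DUS2L (474 and 174 of 5140). For the difference 8 were lower (187 of 7873), and between untreated groups 135 were higher and 1 lower (1872 and 526). DESeq2 size factors: 3 windows lower (42 of 354) and 0 positions higher (818 of 4715) in DUS1L, 13 positions lower for the difference (261 of 7873). Between treated groups 138 positions were higher and 6 lower (2540 and 1232), and between untreated groups 319 and 0 (3162 and 323). DESeq2 Wald test: -2.49 for the whole-18S difference of responses, now past the threshold. Positions with this test: 0 higher and 1 lower in DUS1L (0 and 5 of 4715), 1 and 46 in DUS2L (616 and 339 of 5140). For the difference 4 were lower (132 of 7873). Between treated groups 41 were higher and 0 lower (1454 and 388), and between untreated groups 0 were lower (116).

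Minimum of 1 count: 2 windows lower for the difference (39 of 390). Positions at this minimum: 0 higher and 10 lower of 856 in DUS1L (1040 and 139 of 10899), 0 and 21 of 1315 in DUS2L (241 and 157 of 13653). Of 1467 positions 46 were higher and 7 lower between treated groups (1562 and 1929 of 16258), and 26 and 1 between untreated groups (851 and 825). Minimum of 50: positions, 1 and 21 of 37 in DUS2L (533 and 251 of 1950), 5 of 48 lower for the difference (118 of 4194). Between treated groups 17 of 48 were higher and 6 lower (1097 and 1964), and between untreated groups 34 were higher (1013). Without positions above 500 counts: 4 windows lower in DUS1L (41 of 353), 1 for the difference (24 of 375). Positions in that setting: 1 higher in DUS1L (1030 of 4026), 1 and 30 in DUS2L (185 and 180 of 4452). For the difference 1 was lower (23 of 7134), and between untreated groups 28 were higher (703). One fit of all libraries gave 2 windows lower (19 of 376), 0 positions higher and 5 lower of 413 in DUS1L (653 and 109 of 7873). Windows of 50 nt gave 26 of 37 lower in DUS2L (159 of 551). Of 38 such windows 1 was lower between treated groups (135 of 611) and 33 higher between untreated groups (250). Windows of 200 nt, 10 on 18S, gave 9 lower (67 of 296), 5 higher (103 of 310) and 9 higher (117). Counting each position once, the 18S share of 18S plus 28S positions differed by 4.10 percentage points in DUS1L, against -2.64 for counts.

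The replicate numbers are shared by label only. Deviations of same-numbered libraries correlated at 0.270 in DUS1L and 0.301 in DUS2L over 55 families, from 2 pairs each. The replicate block gave 0 windows lower (9 of 354) and 8 positions higher (1400 of 4715) in DUS1L. In DUS2L 1 position was higher and 52 lower (491 and 413 of 5140). Between treated groups 7 were lower (1928 of 7873), and between untreated groups 29 were higher and 0 lower (908 and 760). The block changed no call for 18S as a whole.

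Leaving out each library in turn left 1 library in its group and gave ranges, lowest to highest. The numbers of windows and positions in these ranges are given without the share over all features, which changed as well. 18S as a whole: -1.02 to 0.71 in DUS1L, -2.65 to -2.04 in DUS2L, -3.02 to -1.22 for the difference (past the threshold at -3.02, without untreated DUS1L library 1), 1.05 to 2.44 between treated and 3.24 to 4.60 between untreated groups. Windows: 0 to 2 lower in DUS1L, 11 to 17 lower in DUS2L, 0 to 6 lower for the difference, 3 to 10 higher and 0 to 1 lower between treated, 14 to 17 higher between untreated groups. Positions: 0 to 12 higher and 1 to 3 lower in DUS1L, 0 to 1 higher and 0 to 53 lower in DUS2L, 0 to 3 lower for the difference, 15 to 64 higher (18 and 15 without 5-ClUrd DUS1L library 1 and 2) and 1 to 11 lower between treated, 0 to 60 higher and 0 to 2 lower between untreated groups. The difference in 18S share was -0.115 to 0.077 percentage points in DUS1L and that in the 18S share of 18S plus 28S was -11.3 to 6.04 in DUS1L and -0.117 to 1.43 in DUS2L. At single positions, 246 ranged between -6.72 and 7.82 in DUS1L, positive without untreated DUS1L library 1. Of the alternatives for named called positions, 279 kept direction and call and 109 lost the call.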
